A study of Saccharomyces cerevisiae with 12 samples.

Results

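The 10 genes described here make, modify, break down or move the sphingoid bases of *Saccharomyces cerevisiae*: *LCB1*, *LCB2*, *SUR2*, *LCB4*, *LCB5*, *LCB3*, *DPL1*, *YPC1*, *YDC1* and *RSB1*. They were chosen by gene symbol, are 10 of the 5444 genes measured, and each was represented by 1 probe set. RNA came from anaerobic batch cultivations of VTT C-10883, a prototrophic MATα strain of CEN.PK background that carries the *Scheffersomyces stipitis* genes *XYL1* and *XYL2* and an overexpressed *XKS1* for xylose use, the single engineered strain of these data. The RNA was hybridised to 12 Affymetrix arrays, 3 for each of 4 conditions: a control and a pulse in the glucose consumption phase, and the same in the xylose consumption phase. A pulse was the addition of 3.9 g/L 5-hydroxymethylfurfural (HMF) and 1.2 g/L furfural, furan aldehydes that form when plant biomass is pretreated, and pulsed cells were sampled 1 hour later. All 4 conditions shared the strain, the mixed glucose and xylose medium, the absence of oxygen and a supply of ergosterol and Tween 80. Per the methods, the pulse on xylose was given in a separate experiment, later in the culture, after the glucose was used up. The study describes the cells of that phase as not growing, whereas those on glucose were in exponential growth. Between the phases, carbon source, experiment, culture age and growth therefore cannot be told apart. The methods name both samples drawn just before the pulse and cultivations without one as the reference, and the labels say only control, so a pulse may not be separable from 1 hour of cultivation. All expression values are log2 values of the robust multi-array average (RMA). Changes were tested with limma, and a gene counts as called if its adjusted p (Benjamini-Hochberg) was under 0.01 and its log2 fold change above 1 or below -1, that is, over 2-fold.

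Strain and culture were checked on marker genes. The MATα gene *STE3*, a pheromone receptor, had log2 expression between 8.13 and 12.50. It averaged 12.35 in the glucose control, but 8.20 in the xylose control and 8.70 in the xylose pulse. No other MATα gene was available for this check. The MAT**a** genes *MFA1*, *MFA2*, *STE2* and *BAR1*, which MATα cells keep off, lay between 2.41 and 6.20 on all arrays. The anaerobic genes *DAN1*, *TIR1*, *TIR3* and *HEM13* lay at 12.83 or above on every array. *ANB1*, another gene of oxygen-limited growth, lay between 9.57 and 13.54, lowest in the xylose control, and the overexpressed *XKS1* between 11.43 and 13.88. Within each condition, r between arrays was 0.992 or higher across probe sets. The values carry no detection calls, so the range of the MAT**a** genes serves below as a view of what an unexpressed gene can read.

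Sphingoid bases are the long-chain amino alcohols on which ceramides and the inositol-containing sphingolipids of yeast are built. Serine palmitoyltransferase starts their synthesis from serine and palmitoyl-CoA in the endoplasmic reticulum, and a hydroxylase turns dihydrosphingosine into phytosphingosine. The bases are either joined to very long fatty acids to give ceramide, which ceramidases can release again, or phosphorylated. The phosphates are returned to the free base by a phosphatase or split by a lyase, the only known exit from the pathway. Free sphingoid bases and their phosphates also act as signals in yeast stress responses, and Rsb1 is a membrane protein thought to move the bases across the plasma membrane.

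The furan pulse in the glucose consumption phase raised 4 of the 10 genes, *RSB1*, *LCB5*, *YDC1* and *DPL1*, and lowered none. In the xylose consumption phase it raised 2, *RSB1* and *YPC1*, and lowered none. *RSB1* was thus the only one of the 10 called in both phases. Over all 5489 probe sets tested, 11.6% were called higher and 9.55% lower in the glucose phase, against 11.8% and 8.38% in the xylose phase. The median change of the 10 genes on the log2 scale was 0.39 in the glucose phase and 0.59 in the xylose phase. The medians of all probe sets were 0.03 and -0.08. The pulsed and control arrays did not overlap for 8 of the 10 genes in either phase, but this was so for 71.4% and 73.6% of all probe sets.

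The response differed between the phases for 6 of the 10 genes when the difference itself was tested. The signed log2 fold change after the pulse was higher on xylose for *YPC1*, *LCB3* and *SUR2* and higher on glucose for *RSB1*, *LCB5* and *YDC1*. Over all probe sets, 38.9% differed, 19.0% in the first direction and 19.9% in the second. The differences for *LCB3* and *SUR2*, at 1.05 and 1.01 on the log2 scale, lay close to the threshold. That of *LCB3* fell below it without glucose control replicate 2 (0.99), glucose pulse replicate 1 (0.90), xylose control replicate 1 (0.99) or xylose pulse replicate 3 (0.88). That of *SUR2* did so without glucose control replicate 1 (0.98), glucose pulse replicate 1 (0.98), xylose control replicate 3 (0.996), xylose pulse replicate 1 (0.91) or xylose pulse replicate 3 (0.999), and after a second quantile normalization (0.94).

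**Figure D1:**
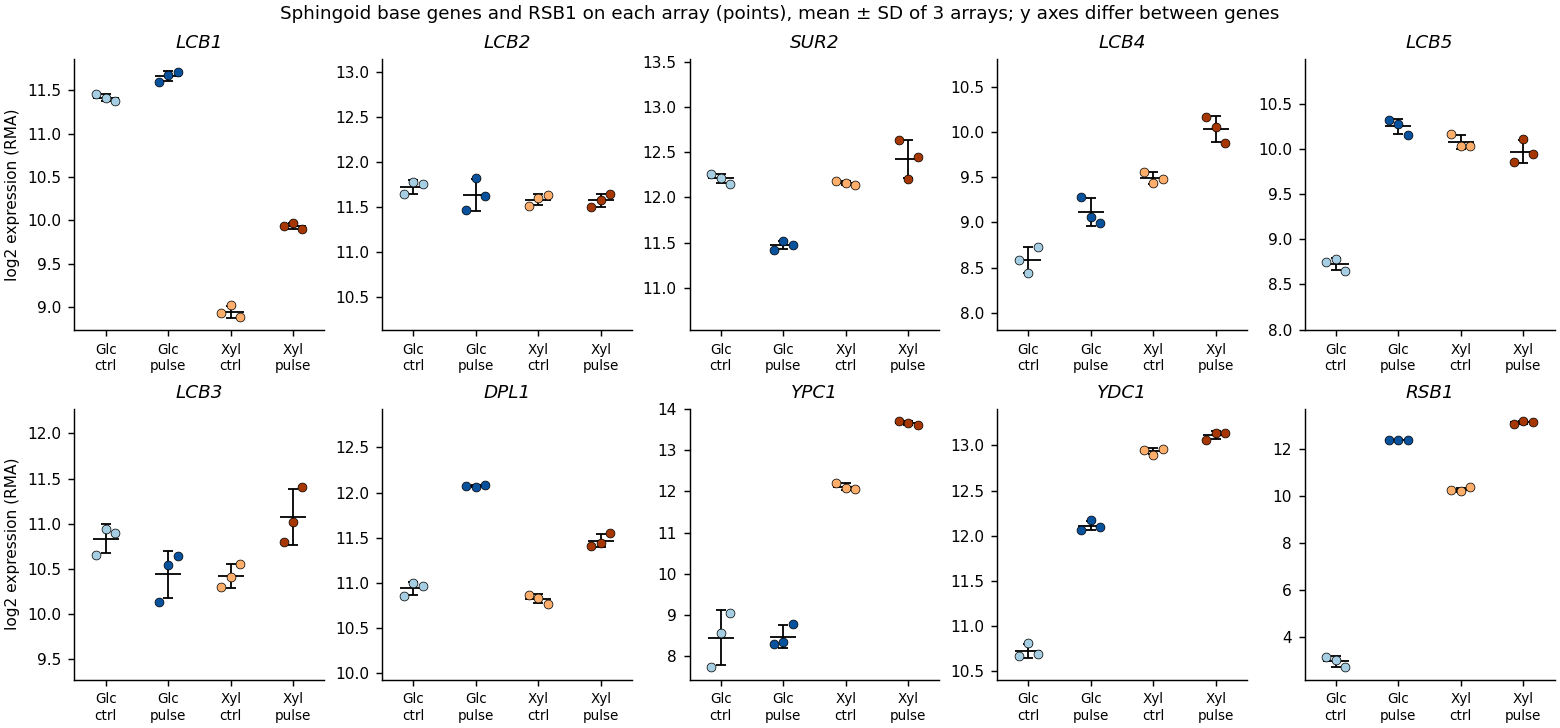
Log2 expression (y axis, RMA) of the 10 genes on each of the 12 arrays (points), with the mean and SD of 3 arrays in the glucose control, glucose pulse, xylose control and xylose pulse. RSB1 goes from a mean of 2.94 in the glucose control to 12.36 in the glucose pulse, whereas LCB2 stays between 11.46 and 11.82 on all arrays.

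**Figure D2:**
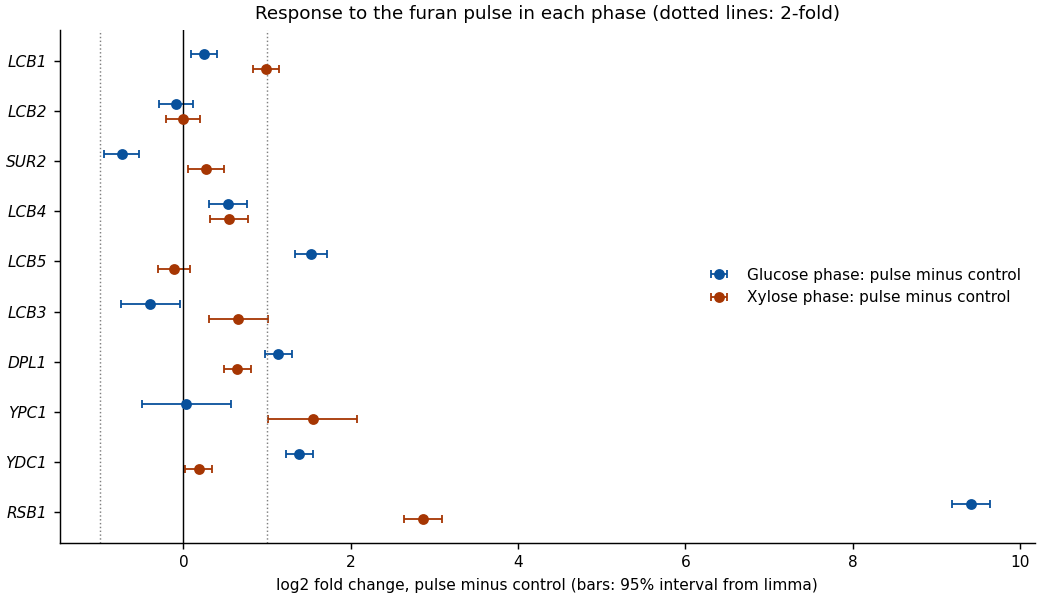
Log2 fold change of each gene after the furan pulse (x axis) in the glucose phase and in the xylose phase, with 95% intervals from limma and dotted lines at a 2-fold change. The intervals of LCB5, DPL1, YDC1 and RSB1 lie higher in the glucose phase, those of LCB1, SUR2, LCB3 and YPC1 lie higher in the xylose phase, those of LCB2 and LCB4 overlap, and the size of the RSB1 response on glucose is not exact.

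*RSB1* was the gene with the widest range. In the glucose control its 3 arrays read 3.14, 3.01 and 2.69, inside the range of the silent MAT**a** genes. After the pulse they read 12.37, 12.35 and 12.36. In the xylose control, without any furan, they read 10.23, 10.19 and 10.35, and after the pulse 13.05, 13.16 and 13.15. The 4 conditions did not overlap, and each differed from its neighbour in the order glucose control, xylose control, glucose pulse, xylose pulse. The steps were 7.31, 2.11 and 0.76 on the log2 scale (standard error 0.10 each, adjusted p = 4.2e-15, 3.8e-10 and 1.5e-05 from limma).

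The response of *RSB1* in the xylose phase was 2.86 on the log2 scale (adjusted p = 2.1e-10), a 7.28-fold increase, and ranked 70 from the top among 5489 probe sets. In the glucose phase the deposited values gave 9.42, and the difference between the responses was -6.55 (standard error 0.15, adjusted p = 5.0e-12). Neither size is exact, because the glucose control may read no transcript at all, so the comparison was repeated with every value below 6.20, the highest MAT**a** reading, raised to that level. The increase in the glucose phase was then 6.16, the difference between the controls 4.06 and the difference between the responses -3.30, all still called.

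Serine palmitoyltransferase showed a split between its large subunits. *LCB1* encodes one of the large subunits, and *LCB2* the one that binds the cofactor pyridoxal phosphate. *LCB1* read 11.45, 11.41 and 11.37 in the glucose control and 8.93, 9.02 and 8.88 in the xylose control, which put it lower on xylose, at -2.47 on the log2 scale (standard error 0.07, adjusted p = 1.5e-12). All arrays of the xylose phase lay below all arrays of the glucose phase. *LCB2* read 11.64, 11.78 and 11.76 in the glucose control and 11.52, 11.60 and 11.63 in the xylose control, a log2 difference of -0.14 (95% interval -0.35 to 0.06, adjusted p = 0.167), and these groups lay next to each other without overlap.

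The pulse moved *LCB1* little on glucose, to 11.60, 11.68 and 11.71, a log2 fold change of 0.25 (adjusted p = 0.0076) and short of 2-fold. On xylose it reached 9.94, 9.97 and 9.90. This change of 0.99 (standard error 0.07, adjusted p = 7.6e-08) stopped just short of 2-fold, and passed it without xylose control replicate 2 (1.03) or xylose pulse replicate 3 (1.01). *LCB1* after the xylose pulse thus remained below both glucose conditions, by a log2 fold change of -1.48 against the glucose control (adjusted p = 2.9e-10). *LCB2* read 11.46, 11.82 and 11.63 after the glucose pulse and 11.50, 11.58 and 11.64 after the xylose pulse. Its responses of -0.09 (95% interval -0.29 to 0.11) and -0.01 (-0.21 to 0.20) were not called, and no neighbours in its order of levels differed.

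*SUR2*, which encodes the hydroxylase that makes phytosphingosine, had responses of opposite sign in the 2 phases, and the difference between them was called (1.01, standard error 0.14, adjusted p = 2.1e-05). It read 12.26, 12.22 and 12.15 in the glucose control and 11.42, 11.52 and 11.48 after the pulse, which came to -0.74 on the log2 scale (standard error 0.10, adjusted p = 1.8e-05) and missed 2-fold. Its xylose control read 12.18, 12.16 and 12.13, close to its level in the glucose control (log2 difference -0.05, adjusted p = 0.615). After the xylose pulse it read 12.63, 12.21 and 12.44, a change of 0.27 that did not pass (adjusted p = 0.0245). The glucose pulse was therefore its lowest condition, 0.69 below the xylose control (adjusted p = 1.8e-05), and the other 3 conditions did not differ step by step.

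*LCB4* and *LCB5* encode related kinases that phosphorylate sphingoid bases, of which Lcb4 carries most of the activity in growing cells. *LCB5* read 8.75, 8.78 and 8.65 in the glucose control and 10.32, 10.28 and 10.16 after the pulse. That was a 2.87-fold increase (1.52 on the log2 scale, standard error 0.09, adjusted p = 6.9e-09). The xylose control, without a pulse, read 10.17, 10.03 and 10.04, higher than in the glucose control by 1.35 (adjusted p = 4.5e-09), and the pulse left it at 9.85, 10.10 and 9.94. This last change was -0.11 (95% interval -0.30 to 0.08, adjusted p = 0.27). The responses of *LCB5* differed by -1.63 between xylose and glucose (standard error 0.12, adjusted p = 8.3e-08), and its 3 higher conditions did not differ from one neighbour to the next, although the xylose pulse stood at -0.29 against the glucose pulse (adjusted p = 0.0082).

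*LCB4* moved in smaller and more even steps. It read 8.59, 8.44 and 8.73 in the glucose control, 9.29, 9.06 and 9.00 after the pulse, 9.56, 9.44 and 9.48 in the xylose control and 10.17, 10.06 and 9.88 after the pulse there. No 2 conditions overlapped, and all 3 steps of this order passed the p threshold without reaching 2-fold (0.53, 0.38 and 0.55, adjusted p = 6.4e-04, 0.0048 and 5.1e-04). Its responses in the phases differed by 0.01 (95% interval -0.31 to 0.34). Only from the lowest to the highest condition did *LCB4* exceed 2-fold, at 1.45 on the log2 scale (adjusted p = 2.0e-08).

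Of the genes that act on the phosphorylated bases, *DPL1* had a positive change in both phases, and *LCB3* had changes of opposite sign. *DPL1* encodes the lyase that splits them into a fatty aldehyde and ethanolamine phosphate. It read 10.86, 11.00 and 10.96 in the glucose control and 12.08, 12.06 and 12.08 after the pulse, a 2.20-fold increase (log2 fold change 1.13, standard error 0.07, adjusted p = 2.3e-08). On xylose it went from 10.87, 10.83 and 10.77 to 11.41, 11.44 and 11.55, a change of 0.64 (adjusted p = 5.2e-06) that was short of 2-fold. The controls did not differ by this test (log2 difference -0.11, adjusted p = 0.159), and the responses differed by -0.49 (adjusted p = 8.9e-04), also short of the threshold.

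*LCB3* encodes the phosphatase that returns the phosphates to free bases. It read 10.65, 10.95 and 10.90 in the glucose control and 10.14, 10.54 and 10.64 after the pulse, which came to -0.39 on the log2 scale (95% interval -0.75 to -0.04, adjusted p = 0.0449). On xylose it read 10.30, 10.41 and 10.56 in the control and 10.80, 11.02 and 11.41 after the pulse, a change of 0.65 (adjusted p = 0.0028). Neither reached 2-fold, whereas their difference of 1.05 did (standard error 0.23, adjusted p = 0.0011). Replicate 1 was the lowest array in all 4 conditions, and the glucose groups all but met, 10.64 after the pulse beside 10.65 in the control. With the replicate number as a block the adjusted p in the glucose phase was 0.00198 and that between the controls 0.00104 in place of 0.0293, at unchanged log2 fold changes. Without the block, no neighbours in the order of levels of *LCB3* differed.

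The ceramidase genes were both much higher on xylose, and each was called after the pulse in a different phase. *YPC1* encodes a ceramidase that prefers phytoceramide and can also run in reverse, and *YDC1* one that prefers dihydroceramide. *YPC1* read 7.72, 8.56 and 9.04 in the glucose control, the widest spread of the 10 genes, and 8.29, 8.35 and 8.78 after the pulse. These groups overlapped fully, with a change of 0.03 (95% interval -0.50 to 0.56, adjusted p = 0.913). On xylose its control read 12.20, 12.09 and 12.05, higher by 3.68 on the log2 scale (standard error 0.24, adjusted p = 6.5e-09). The pulse on xylose took it to 13.71, 13.66 and 13.61, a 2.92-fold increase (log2 fold change 1.55, adjusted p = 9.3e-05), and the responses differed by 1.51 (standard error 0.35, adjusted p = 0.0015).

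*YDC1* read 10.67, 10.81 and 10.69 in the glucose control and rose to 12.07, 12.17 and 12.10 after the pulse, 2.61-fold (log2 fold change 1.39, standard error 0.07, adjusted p = 3.1e-09). Its xylose control read 12.95, 12.90 and 12.95, higher than in the glucose control by 2.21 (adjusted p = 4.3e-12). The xylose pulse left it at 13.06, 13.14 and 13.14, a change of 0.18 (adjusted p = 0.0398) that was not called. The responses of *YDC1* thus differed by -1.21 (standard error 0.10, adjusted p = 2.6e-07), opposite in sign to the difference for *YPC1*.

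Between the unpulsed phases, 5 of the 10 genes were called: *RSB1*, *YPC1*, *YDC1* and *LCB5* were higher on xylose and *LCB1* lower. In this comparison 27.8% of the probe sets tested were higher and 27.2% lower. *LCB4*, at 0.91 (adjusted p = 2.4e-06), passed on p and not on fold. Between the pulsed phases, *YPC1* (5.19) and *YDC1* (1.00) were higher on xylose and *LCB1* (-1.72) was lower, beside 20.8% and 22.9% of all probe sets. *YDC1* only just passed here, and did not without glucose pulse replicate 1 (0.98), glucose pulse replicate 3 (0.995), xylose pulse replicate 2 (0.99) or xylose pulse replicate 3 (0.99), nor after a second quantile normalization (0.97) or centring on medians (0.98). *LCB4* (0.92) passed without glucose pulse replicate 1 (1.01) or xylose pulse replicate 3 (1.0007), and *SUR2* (0.95) without xylose pulse replicate 2 (1.06).

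By adjusted p alone, without the 2-fold requirement, 7 of the 10 genes passed after the glucose pulse, 6 after the xylose pulse, 8 for the difference between the responses, 6 between the controls and 9 between the pulsed phases. The shares of all probe sets that passed this way were 57.7%, 60.8%, 64.3%, 81.5% and 76.1%. Arrays did not overlap for 8 genes between the controls and for 9 between the pulsed phases, beside 88.6% and 82.7% of all probe sets. When the 4 conditions of each gene were put in order of level, 17 of the 30 neighbouring pairs differed at an adjusted p under 0.01. Some of these pairs set the xylose control against the glucose pulse or the xylose pulse against the glucose control, comparisons in which 78.4% and 80.2% of all probe sets passed. These are shares of fixed comparisons, whereas neighbours in an order are the closest conditions of each gene. Neighbouring pairs and lowest conditions were not counted over all probe sets, so these counts only describe the 10 genes. All 3 steps differed for *LCB1*, *LCB4* and *RSB1*, and none did for *LCB2* and *LCB3*. The lowest condition differed from the next one for 6 genes: it was the glucose control for *LCB4*, *LCB5*, *YDC1* and *RSB1*, the xylose control for *LCB1* and the glucose pulse for *SUR2*. For *LCB2*, *LCB3*, *DPL1* and *YPC1* the lowest conditions did not differ by this test.

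The members of a pair can be set side by side through the difference of their log2 values on each array, which compares changes and not levels. The log2 ratio of *YPC1* to *YDC1* differed from the control by -1.35 after the glucose pulse and by 1.37 after the xylose pulse. For *LCB5* to *LCB4* the differences were 0.99 on glucose and -0.66 on xylose. In both pairs the sign thus turned between the phases. For *LCB1* to *LCB2* they were 0.34 and 1.00 after the pulses, and -2.32 between the xylose control and the glucose control. In each of these cases the 3 arrays of one condition did not overlap the 3 of the other. The exact permutation p was 0.10 (two-sided) for each of the 12 comparisons made, which include *LAG1* and *LAC1* below, and also 0.10 after adjustment. This is the smallest p that 3 against 3 arrays can give, so none of them can pass.

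**Figure D3:**
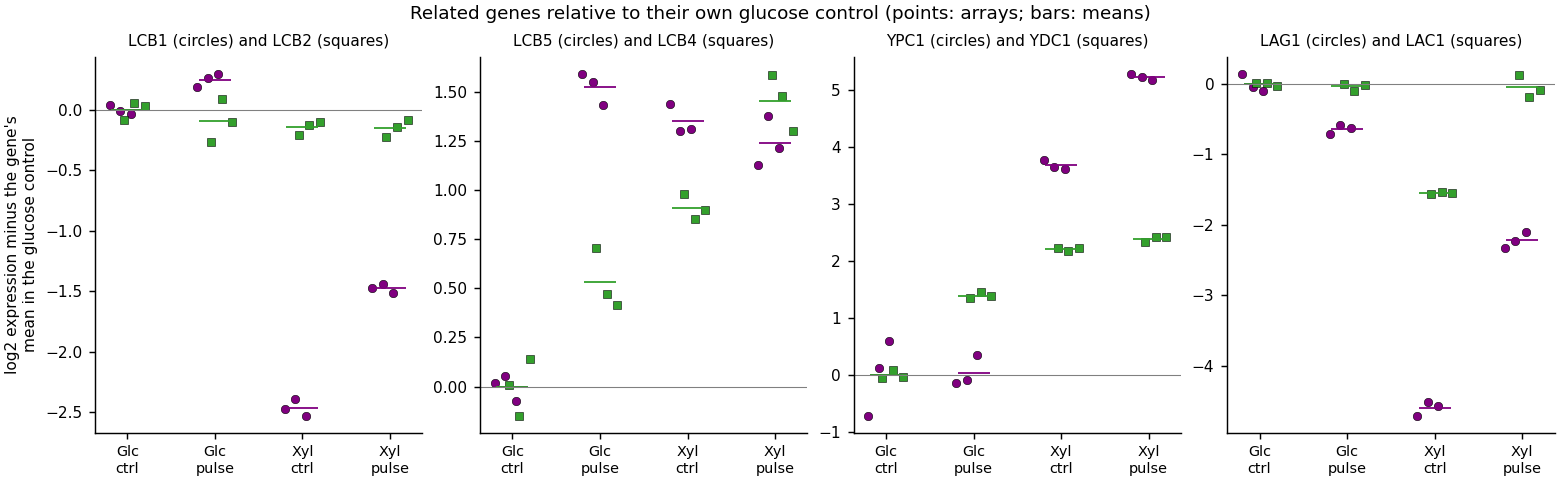
Log2 expression of related genes on each array, relative to the mean of the same gene in the glucose control (y axis), for LCB1 and LCB2, LCB5 and LCB4, YPC1 and YDC1, and LAG1 and LAC1 in the 4 conditions. Within a pair the genes separate: in the xylose control LCB1 stands at -2.47 and LCB2 at -0.14, and in the glucose pulse YDC1 stands at 1.39 and YPC1 at 0.03.

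Ceramide and very long fatty acid synthesis were assessed with 11 further genes. They include *TSC3*, which encodes a small subunit of serine palmitoyltransferase. *TSC3* was not called after either pulse or between the controls (-0.62, adjusted p = 0.0012). None of the 11 was called after the glucose pulse (median log2 fold change -0.03), and 2 rose after the xylose pulse, beside 11.8% of all probe sets. These were the ceramide synthase genes *LAG1* and *LAC1*. *LAG1* read 5.99, 6.19 and 6.13 in the xylose control, within the MAT**a** range, and 8.38, 8.47 and 8.59 after the pulse (log2 fold change 2.38, not an exact size, adjusted p = 3.1e-10). *LAC1* went from 10.92, 10.95 and 10.94 to 12.61, 12.29 and 12.40 (1.50, adjusted p = 8.3e-09). In the glucose phase *LAG1* changed by -0.64 and *LAC1* by -0.03, neither of them called. The responses differed between the phases by 3.02 for *LAG1*, 1.53 for *LAC1*, 1.46 for *PHS1*, a dehydratase of fatty acid elongation, and 1.35 for the elongase gene *ELO2*. For *LAG1* and *ELO2* these sizes are not exact, since the first lay within the MAT**a** range in the xylose control and the second in both xylose conditions on average.

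Without a pulse, 7 of these 11 genes were lower on xylose than on glucose and none was higher, with a median log2 fold change of -2.05 against 0.09 for all probe sets, of which 27.2% were lower. *LAG1* had -4.60 (adjusted p = 5.8e-14), *LAC1* -1.55 (adjusted p = 8.2e-10), *PHS1* -2.59 (adjusted p = 1.5e-09) and *ELO2* -6.02 (adjusted p = 6.9e-13). *LAG1* and *ELO2* averaged 6.10 and 5.44 in the xylose control, within the MAT**a** range, so their sizes here are not exact.

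Among 7 genes of complex sphingolipids, *IPT1*, which adds the last inositol phosphate to the head group, rose after the glucose pulse from 9.20, 8.70 and 8.88 to 10.56, 10.85 and 10.79 (log2 fold change 1.81, adjusted p = 2.5e-08). On xylose it went from 10.43, 10.46 and 10.46 to 11.33, 11.48 and 11.46, a change of 0.98 (adjusted p = 9.1e-06) short of 2-fold. *ISC1*, a phospholipase that releases ceramide from these lipids, rose after the xylose pulse by 1.05 (adjusted p = 6.3e-08) and changed by -0.53 on glucose without being called, with a difference between the responses of 1.58 (adjusted p = 2.7e-08). The other 5 genes of this list were not called after either pulse. Thus 1 of the 7 rose in each phase, beside 11.6% of all probe sets on glucose and 11.8% on xylose. Between the controls, 2 of the 7 were higher on xylose, among them *IPT1* (1.53), beside 27.8% of all probe sets. Another 2 were lower, among them *ISC1* (-2.43), beside 27.2%. After the xylose pulse *ISC1* averaged 9.00, still below the 10.39 of its glucose control.

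Of 5 genes that handle what the lyase Dpl1 releases, 2 rose in the glucose phase, beside 11.6% of all probe sets. *HFD1*, the dehydrogenase of the fatty aldehyde hexadecenal, went from 8.75, 9.29 and 9.13 to 9.93, 10.39 and 10.21 (log2 fold change 1.12, adjusted p = 9.8e-06). *FAA1*, an acyl-CoA synthetase that acts on fatty acids of many sources, went from 8.28, 8.86 and 9.12 to 12.33, 12.21 and 12.18 (3.49, adjusted p = 7.8e-10). On xylose *FAA1* rose by 1.08 (adjusted p = 4.2e-05), *HFD1* changed by -0.14 (adjusted p = 0.395), and *EPT1*, which uses activated ethanolamine phosphate for phospholipid synthesis, fell by 1.02 (adjusted p = 2.3e-07). Over all probe sets, 11.8% rose and 8.38% fell after the xylose pulse. *HFD1* and *FAA1* were also higher in the xylose control than in the glucose control, by 2.80 and 3.63 (adjusted p = 2.7e-10 and 6.6e-11). In that comparison 27.8% of all probe sets were higher.

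**Figure D4:**
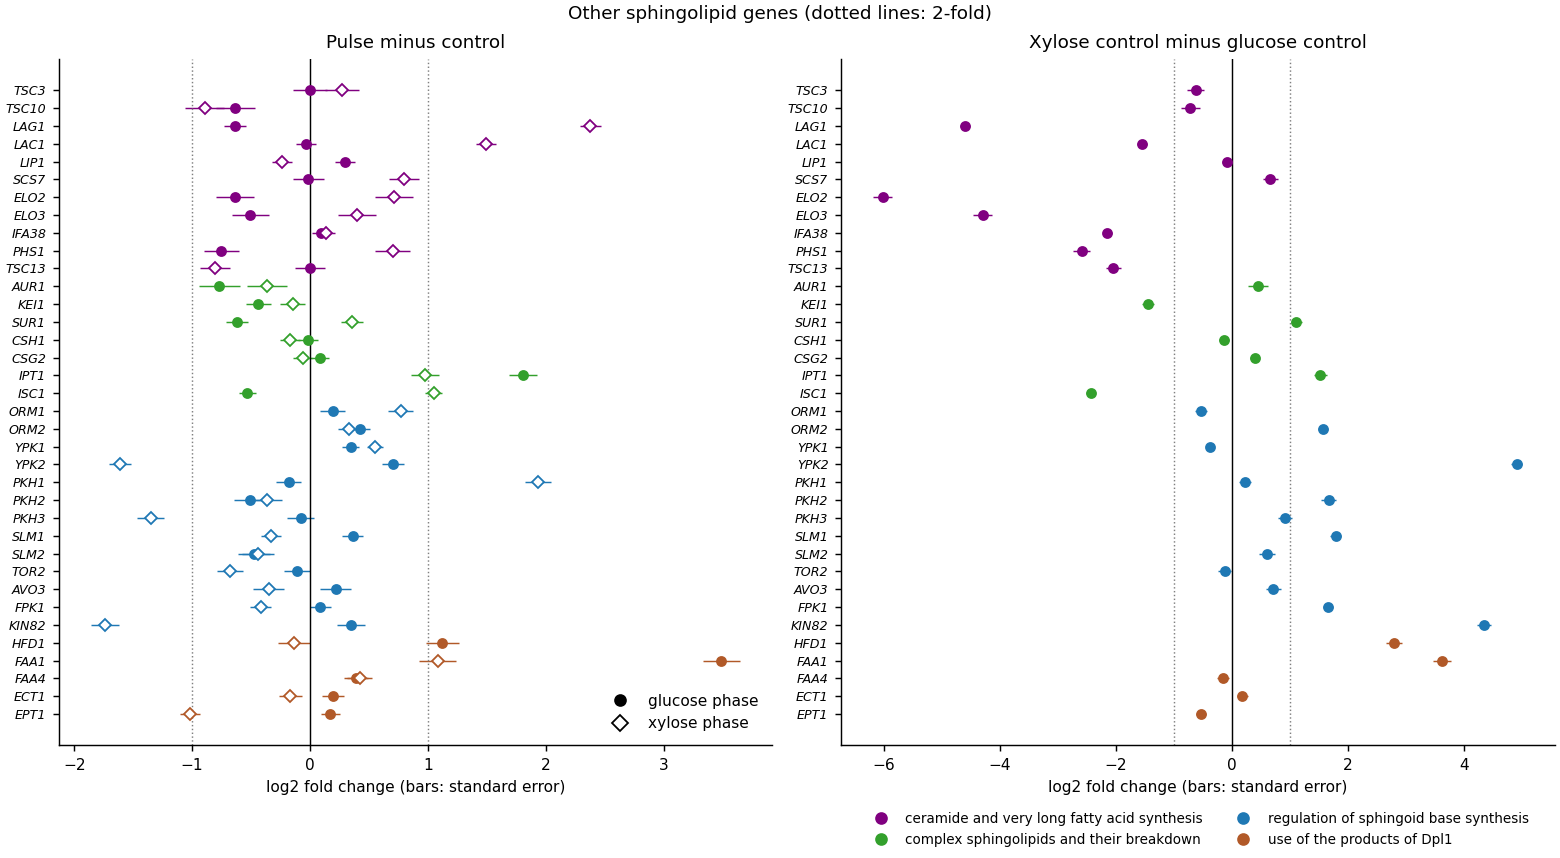
Log2 fold changes with standard errors (x axis) of 36 further sphingolipid genes in 4 lists, after the pulse in the glucose and xylose phases and between the unpulsed controls; dotted lines mark a 2-fold change. In the comparison of the controls, 7 of the 11 genes of ceramide and very long fatty acid synthesis lie below -1, ELO2 lowest at -6.02.

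Of 3 other genes measured from the RTA1-like family, to which Rsb1 belongs, 2 rose after the glucose pulse, and 1 of them fell after the xylose pulse. Over all probe sets, 11.6% rose after the glucose pulse and 8.38% fell after the xylose pulse. *RTA1*, linked to resistance to a toxic cholesterol analogue, rose after the glucose pulse from 6.53, 6.66 and 6.62 to 8.45, 9.25 and 9.03 (log2 fold change 2.30, adjusted p = 2.3e-07) and fell after the xylose pulse from 7.13, 7.14 and 7.40 to 5.72, 5.78 and 6.30 (-1.28, adjusted p = 5.1e-05). *PUG1*, a gene of protoporphyrin uptake, rose on glucose from 4.95, 5.25 and 4.98 to 6.81, 6.67 and 6.67 (1.65, adjusted p = 7.7e-09). *PUG1* averaged within the MAT**a** range in all conditions but the glucose pulse, and *RTA1* after the xylose pulse, so the sizes of the rise of *PUG1* and the fall of *RTA1* are not exact. Between the controls *RTA1* had 0.61 and was not called.

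The genes whose log2 values followed *RSB1* most closely over the 12 arrays were *TMC1* (Pearson r = 0.998), *PDR15* (0.995), *NCA3* (0.989), *KHA1* (0.987) and *ATG40* (0.985). In all, 55 of the 5479 probe sets compared had an r above 0.95. The 12 points come from 4 conditions of 3 arrays and are not 12 independent points. The glucose control of *RSB1* lay within the MAT**a** range and far below its other conditions, so r depends strongly on that condition. *NCA3* averaged 4.42 there, also within that range. *PDR15*, an ABC transporter gene, had means of 9.09, 12.42, 11.41 and 12.71 in the glucose control, glucose pulse, xylose control and xylose pulse, and *TMC1* 11.49, 13.51, 13.03 and 13.59. Within the glucose phase alone, over 6 arrays, 1127 probe sets had an r above 0.95, led by *GAS2*, *PUT1*, *ATO2*, *MRP8* and *GLO1*. Within the xylose phase 1091 did, led by *PRM10*, *GRX3*, *SMI1*, *MIM2* and *PEX25*. Over these 2 groups of 3 arrays many genes had nearly the same r, so the order among the leading ones carries little.

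*RSB1* is a known target of the drug resistance factors Pdr1 and Pdr3, and 7 genes of this system were set beside it. All 7 rose in the glucose phase (median log2 fold change 2.56) and 4 in the xylose phase (median 1.29), beside 11.6% and 11.8% of all probe sets. The study had already reported *PDR5*, *PDR15*, *SNQ2* and *YOR1* as upregulated in both phases of these data. It also listed Pdr1 and Pdr3 among its highest scoring regulators. These counts were thus largely known in advance and only describe the list. Control of *RSB1* by these factors was not tested. *PDR5*, a major drug efflux pump, rose by 3.10 on glucose and 3.82 on xylose (adjusted p = 4.0e-09 and 7.9e-10). The responses of *PDR5* differed by 0.71 (adjusted p = 0.0153), not past the threshold. Those of *PDR15* differed by -2.04 and those of *PDR10* by -2.34 (adjusted p = 4.7e-09 and 3.0e-07), with the same sign as for *RSB1*. *PDR15* rose by 3.33 on glucose and 1.29 on xylose, both called. *PDR10* rose by 2.56 on glucose but, unlike *RSB1*, was not called on xylose (0.22, adjusted p = 0.181). *SNQ2* rose by 2.16 on glucose and 1.41 on xylose, and *YOR1* by 2.75 and 1.96, all called. The responses of *SNQ2* and *YOR1* differed by -0.75 and -0.79 (adjusted p = 6.0e-05 and 1.7e-04), short of the 2-fold threshold. Between the controls *PDR5* was lower on xylose, at -1.24, and *PDR15* and *PDR10* were higher by 2.32 and 3.36. *SNQ2* (-0.29) and *YOR1* (0.30) were not called between the controls. *PDR1* only just passed on glucose, at 1.01 (adjusted p = 2.3e-06), and changed by 0.85 on xylose (adjusted p = 1.1e-05) without being called. *PDR3* rose by 2.27 on glucose and changed by 0.69 on xylose without being called, and differed by 0.16 between the controls (adjusted p = 0.159). The responses of *PDR3* differed by -1.58 (adjusted p = 5.7e-07), which was called.

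**Figure D5:**
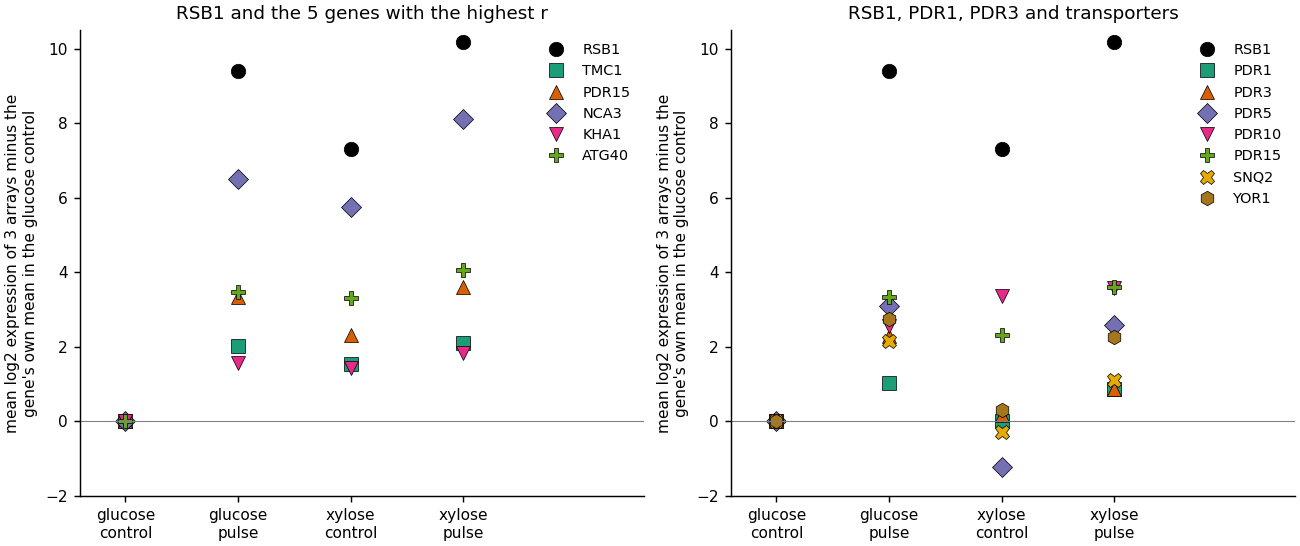
Mean log2 expression of 3 arrays relative to the same gene in the glucose control (y axis) for RSB1 with the 5 genes most correlated with it (left) and with PDR1, PDR3 and 5 transporter genes (right). RSB1, PDR15 and PDR10 are raised in the xylose control relative to the glucose control, PDR5 stands at -1.24, and PDR1 and PDR3 lie within 0.16 of it.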

How the data were processed

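Per the labels and methods, total RNA was labelled with a 3′ IVT kit, and the authors processed the GeneChip Yeast Genome 2.0 scans with RMA (background correction, quantile normalization, median polish). The deposited values are log2 expression, 1 column for each of the 12 arrays. They were analysed as deposited. Depth does not apply to arrays, so the number of arrays limits precision. The methods give 3 bioreactors per condition.

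Of 5705 probe sets, 5489 were paired with 1 gene by the platform annotation and current RefSeq symbols, 216 with none and 0 with several. One mean per condition was fitted in limma 3.58.1 (R 4.3.3; 8 residual and 4.53 prior degrees of freedom) and p was adjusted over the 5489 within each comparison. Standard errors and 95% intervals come from that fit. In simulated data 200 of 5489 probe sets were shifted, and 99.5% of these were recovered for the glucose pulse and 100% for the xylose pulse. Every shift was clearly larger than 2-fold, and the difference between the responses was not simulated. The recovery therefore says nothing about changes near the threshold. Tables and figures were made in Python 3.11.15.

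The members and lists were chosen with earlier results of these data known. All 10 members are named. Other genes are named if called after a pulse or between the responses (up to 5 per list and comparison) or if among the 5 most correlated with *RSB1*. *TSC3*, *PDR1*, *ORM1* and *ORM2* are named outside this rule. Replicate numbers were taken as pairs because the deviations of control and pulse with the same number correlated at 0.145 to 0.474 on glucose and 0.299 to 0.569 on xylose. With different numbers the range was -0.465 to 0.285 on glucose and -0.479 to 0.328 on xylose. The highest of these were for control 2 with pulse 3, so the correlations set replicate 1 apart but do not separate replicates 2 and 3. The methods use no block, so it was run as an alternative. The comparisons were also run with a model per comparison, with every probe set of the table, without the dimmest 25%, with other normalizations, with a trended and robust prior, with other thresholds, with probe sets averaged by gene and without each array in turn. Leaving out a replicate number in all conditions, and raising dim values to the highest MAT**a** reading, were chosen after seeing the data. Pairs of genes were compared with an exact permutation test. Promoter and protein sequences were not used here.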

Additional observations from a re-analysis of the deposited data

Results flagged for a closer look

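For 6 of the 10 genes the response to the furan pulse differed between the xylose and the glucose consumption phase in a test of that difference in limma, beside 38.9% of all probe sets. The xylose response minus the glucose response was -6.55 on the log2 scale for *RSB1*, or -3.30 with values raised to the highest MAT**a** reading, since its glucose control lay within that range. It was -1.63 for *LCB5* and -1.21 for *YDC1*, both called on glucose and not on xylose. It was 1.51 for *YPC1*, the gene with the widest spread in the glucose control, and 1.05 for *LCB3* and 1.01 for *SUR2*, both of which had a negative change on glucose and a positive one on xylose. The calls of *LCB3* and *SUR2* were lost without any 1 of several single arrays, and that of *YPC1* without replicate 2 in all conditions (1.38, adjusted p = 0.0369).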

How the results depend on the processing

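The 10 genes were recomputed in 5 comparisons under 26 alternatives, giving 1290 values, as a fit on the arrays of 1 comparison gives no difference between the responses. Of these, 1247 kept their side of the thresholds, 20 lost the call, 23 gained it and 0 called values changed sign. Among the 1247 were 16 uncalled values that changed sign, for *LCB2*, *LCB4* and *YPC1* (for *YPC1* on glucose, -0.33 to 0.33 without 1 array). Without the 2-fold threshold, 7 genes passed in the glucose phase (6 higher and 1 lower), 6 in the xylose phase (6 higher) and 9 between the pulsed phases, in place of 4, 2 and 3. Leaving out 1 array at a time gave 4 to 4 called genes in the glucose phase, 2 to 3 in the xylose phase, 4 to 6 for the difference between the responses, 5 to 5 between the controls and 2 to 3 between the pulsed phases. Of 30 neighbouring pairs in the orders of levels, 17 differed, 15 to 17 without 1 array and 18 with the replicate block. The replicate block left the counts of called genes at 4, 2, 6, 5 and 3 and changed no call. Without replicate 2 in all conditions the difference between the responses of *YPC1* was no longer called (1.38, adjusted p = 0.0369), nor was that of *LCB3* (1.06, adjusted p = 0.019), and without replicate 1 that of *SUR2* (0.87). Raising dim values lowered the response of *RSB1* on glucose from 9.42 to 6.16 and moved the difference between its responses from -6.55 to -3.30.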

Other observations

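Of 13 genes that regulate sphingoid base synthesis and its signalling, none was called after the glucose pulse, 1 rose after the xylose pulse and 3 fell, where 11.8% of all probe sets rose and 8.38% fell. *PKH1*, a kinase that responds to sphingoid bases and activates the Ypk kinases, read 9.65, 9.85 and 9.80 in the xylose control and 11.50, 11.85 and 11.76 after the pulse (log2 fold change 1.94, adjusted p = 7.6e-09). *YPK2*, one of those kinases, read 10.15, 10.25 and 10.28 and then 8.47, 8.69 and 8.68 (-1.61, adjusted p = 1.1e-08). *KIN82* and *PKH3*, further kinase genes, fell by 1.74 and 1.35. In the xylose control *YPK2* and *KIN82* were higher than in the glucose control by 4.91 and 4.34. *YPK2* averaged 5.32 in the glucose control, within the MAT**a** range, so that size is not exact. *ORM1* and *ORM2*, inhibitors of serine palmitoyltransferase, were looked at after their values were seen. Neither was called after a pulse, and *ORM2* was higher in the xylose control by 1.57 (adjusted p = 1.2e-09) while *ORM1* had -0.53.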
